A study of Mus musculus with 25 samples.

Results

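The insulin-like growth factor (IGF) genes of the developing mouse palate were examined as a family of 10 members: the ligands Igf1 and Igf2, the receptors Igf1r and Igf2r, and the binding protein genes Igfbp2, Igfbp3, Igfbp4, Igfbp5, Igfbp6 and Igfbp7. They were chosen by gene symbol, and all 10 are among the 37406 genes of the deposited table. The palate was taken at E14.5, a stage of embryonic development in days after conception, from wild type embryos of the outbred CD1 strain, and no treatment is named in the labels. Tissue was cut out by laser capture microdissection. The anterior and the posterior palate were each divided into lateral, medial, oral and nasal tissue, which gave 8 compartments. Each compartment had 3 libraries and the anterior nasal compartment had 4, so that 13 anterior and 12 posterior libraries made up the 25. Lateral with medial and oral with nasal are separate divisions of the same shelves. Oral and nasal tissue may therefore overlap lateral and medial tissue.

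IGF1 and IGF2 are secreted growth factors that act on the IGF1 receptor, a tyrosine kinase that signals through the PI3 kinase and AKT pathway to growth, survival and differentiation. The IGF2 receptor, also the mannose 6-phosphate receptor, has no kinase and carries IGF2 to the lysosome for breakdown. The binding proteins hold IGFs outside the cell and may block or prolong their action, and proteases such as PAPPA release the ligand by cutting them. In the mouse Igf2 is expressed from the paternal allele and Igf2r mainly from the maternal allele in most tissues.

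Values are RPKM (reads on a gene divided by its transcript length and by the depth of the library), which allow levels to be compared between genes. The depth implied by the values was 1.64 to 6.56 M reads in a library, and 3.27 M at the median. This is far below the average number of reads per sample that the study states, and the gap was not examined. At these depths Igfbp2 rested on 18.8 to 301 reads and Igfbp3 on 378 to 1327. Posterior medial replicate 2 stood apart, with a mean correlation across genes of 0.652 with its replicates and 12935 genes above 0, the fewest of any library. Alignment names of 6 libraries, all labelled wild type, carry the name of another line (ERK2 in 2 and Tgfbr2 in 4). All 6 mesenchyme markers examined (Prrx1, Twist1, Pdgfra, Col1a1, Col1a2 and Vim) reached 5 RPKM in every compartment. Their summed level lay between 575 and 1215 RPKM, against 20.2 to 140 RPKM for 8 epithelial markers. In bulk tissue of this kind, fewer cells of a type and less RNA per cell cannot be told apart.

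The ligand Igf2 was the most abundant member, with a mean of 352 RPKM ± 87.2 (SD, n = 25). Its level ran from 237 through a median of 346 to 643 RPKM, and it ranked 30 among the 22399 genes above 0 in any library. The binding protein genes had means of 132 RPKM for Igfbp4, 106 for Igfbp3, 95.5 for Igfbp5, 40.0 for Igfbp2 and 24.5 for Igfbp7. The ligand Igf1, with a mean of 80.6 RPKM ± 35.0 (SD, n = 25), lay below the 3 highest of these. Igfbp6 was near the floor, at 0 to 4.30 RPKM with a median of 3 reads per library. It fell below the expression minimum, and the other 9 members were tested. Among the receptor genes Igf2r was the higher, with a mean of 43.0 RPKM against 25.5 RPKM for Igf1r.

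**Figure D1:**
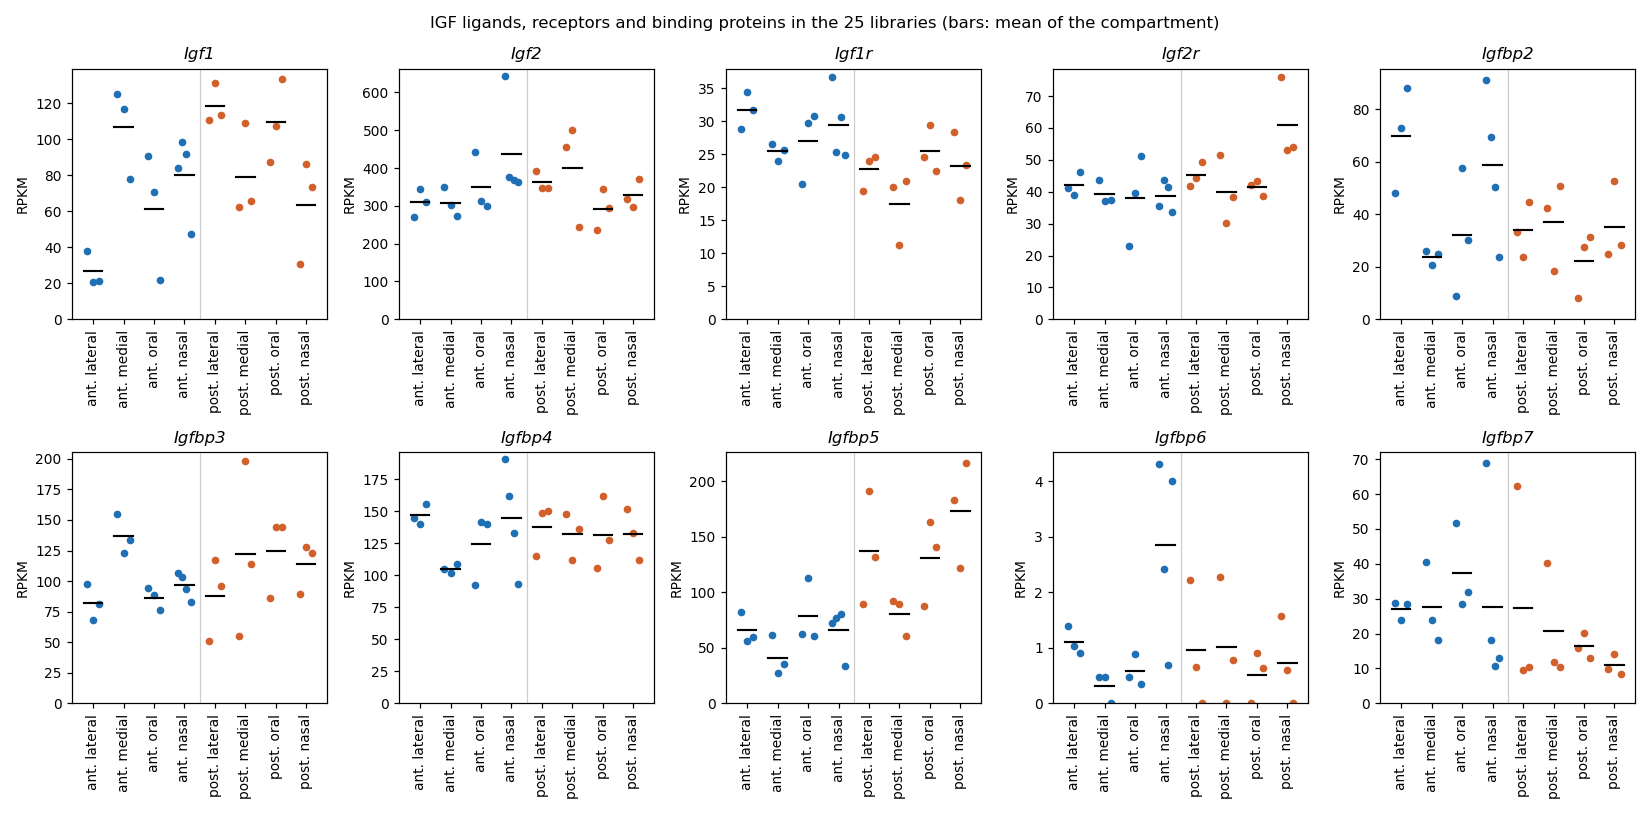
RPKM (linear vertical axes, each with its own range) of the 10 member genes in the 8 compartments; points are libraries, blue anterior and orange posterior, and black bars are compartment means. Igfbp5 points sit higher in the posterior compartments (mean 131 against 63.1 RPKM), Igf1 is low in anterior lateral libraries (20.6 to 38.1 RPKM), and Igfbp6 stays at or under 4.30 RPKM.

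A moderated F test (limma) asked whether a gene differed among any of the 8 compartments. Of all 11913 genes tested, 4.42% passed at an adjusted p under 0.05 (Benjamini-Hochberg), and 2 of the 9 members did. These were Igfbp5 (F = 6.37, adjusted p = 0.0179) and Igf1 (F = 5.03, adjusted p = 0.0490). With 1 library left out the Igfbp5 call held in 21 of 25 fits. It was lost without anterior medial replicate 2 (adjusted p = 0.0590) or 3 (0.0584) and without posterior nasal replicate 1 (0.0546) or 3 (0.0583). The Igf1 call held in 5 of 25 such fits, those without anterior oral replicate 1 (adjusted p = 0.0229) or 3 (0.0120), posterior medial replicate 2 (0.0341), posterior nasal replicate 1 (0.0366) or anterior nasal replicate 4 (0.0396). Without any other library it was lost, with adjusted p from 0.0503 to 0.214. With the sequencing run as a term in the model, the adjusted p was 0.0824 for Igfbp5 and 0.150 for Igf1. When compartments were ordered by each gene's own mean, adjacent compartments had overlapping ranges for every member but Igf2r. Its posterior nasal libraries (53.0 to 76.0 RPKM) stood above the posterior lateral ones (41.6 to 49.4 RPKM). Igf2r did not pass the F test (adjusted p = 0.719), and such gaps were not counted over all genes.

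Of the members, 3 passed a test in a comparison described here, Igf1, Igfbp2 and Igfbp5. For each of them a window is shown, the 250 bases before an annotated start of transcription, 5′ to 3′ in the direction of the gene, from RefSeq on GRCm38.p6. Capitals mark CG dinucleotides, the sites of CpG methylation. The Igf1 window is chr10:87860861-87861110 on the plus strand, the Igfbp2 window chr1:72825137-72825386 on the plus strand and the Igfbp5 window chr1:72874866-72875115 on the minus strand. Igfbp2 has another annotated start upstream of this one. Placed relative to the neighbouring Igfbp5, the start deposited for Igfbp2 (72871077 in mm9) falls at that upstream start. The printed Igfbp2 window therefore lies inside the gene as deposited and is not the promoter at its deposited start. The upstream window, chr1:72824230-72824479, holds 14 CG dinucleotides and 3 GGGCGG matches and is not printed.
Igf1: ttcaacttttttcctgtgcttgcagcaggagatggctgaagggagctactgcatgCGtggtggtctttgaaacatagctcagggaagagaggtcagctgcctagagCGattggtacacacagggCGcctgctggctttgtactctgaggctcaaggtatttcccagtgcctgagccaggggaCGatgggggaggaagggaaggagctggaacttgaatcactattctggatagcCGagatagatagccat
Igfbp2: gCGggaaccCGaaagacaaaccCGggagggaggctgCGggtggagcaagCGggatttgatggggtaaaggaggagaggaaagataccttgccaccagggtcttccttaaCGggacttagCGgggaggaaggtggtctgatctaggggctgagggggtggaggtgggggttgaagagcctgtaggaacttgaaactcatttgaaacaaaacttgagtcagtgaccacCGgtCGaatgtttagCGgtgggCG
Igfbp5: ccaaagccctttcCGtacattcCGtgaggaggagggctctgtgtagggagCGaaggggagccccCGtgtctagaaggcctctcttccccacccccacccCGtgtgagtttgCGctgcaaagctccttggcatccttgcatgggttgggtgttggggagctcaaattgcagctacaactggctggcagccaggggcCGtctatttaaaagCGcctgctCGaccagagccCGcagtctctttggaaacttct
The windows hold 5, 11 and 10 CG dinucleotides, where the median of 32851 windows is 6. The letters TATAAA occur in 12.4% and GGGCGG in 32.7% of all windows on either strand, and neither occurs in the 3 windows printed. In Igfbp4, by contrast, TATAAA begins 28 bases before the start. The RPKM values do not show which start of a gene was used.

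Igfbp5 (gene ID 16011, chr1:72904639-72921439 in mm9) encodes a binding protein that also attaches to extracellular matrix, and it was higher in the posterior than in the anterior palate. The 13 anterior libraries ran from 26.9 through a median of 61.4 to 113 RPKM, and the 12 posterior libraries from 60.9 through a median of 127 to 216 RPKM. The ranges overlapped. The means were 63.1 RPKM ± 23.2 (SD, n = 13) and 131 RPKM ± 49.2 (SD, n = 12). On the log2(RPKM + 0.1) scale the difference was 1.05 ± 0.22 (SE), with an adjusted p of 0.00459 by limma. Igfbp5 was the only member of the 9 tested to pass in this comparison, in which 3.32% of 8608 genes passed and 1.66% passed with a higher posterior level. It passed in all 25 fits that left out 1 library, with adjusted p at most 0.0102.

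The Igfbp5 difference was seen in each division of the shelf. In the lateral compartments the anterior libraries had 82.2, 55.9 and 60.0 RPKM and the posterior libraries 89.5, 191 and 132 RPKM, without overlap. In the nasal compartments the anterior libraries had 72.1, 77.1, 80.1 and 33.9 RPKM and the posterior libraries 183, 121 and 216 RPKM, again without overlap. Posterior nasal tissue held the highest compartment mean, 174 RPKM ± 48.2 (SD, n = 3), and anterior medial tissue the lowest, 41.2 RPKM ± 17.98 (SD, n = 3). In the medial compartments the anterior libraries had 61.4, 26.9 and 35.2 RPKM and the posterior ones 92.2, 89.3 and 60.9 RPKM. In the oral compartments they had 62.2, 113 and 60.7 RPKM and 87.9, 163 and 141 RPKM. Ranges overlapped in the medial and oral divisions, where the posterior mean was 1.96 and 1.66 times the anterior mean. The Igfbp5 ratio was 2.08 for lateral and 2.64 for nasal tissue. Groups without overlap were not particular to Igfbp5. In the lateral division Igf1, Igf2, Igf1r and Igfbp2 did not overlap either, and in the nasal division Igf2r did not. The share of all genes without overlap within a division was not worked out.

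**Figure D2:**
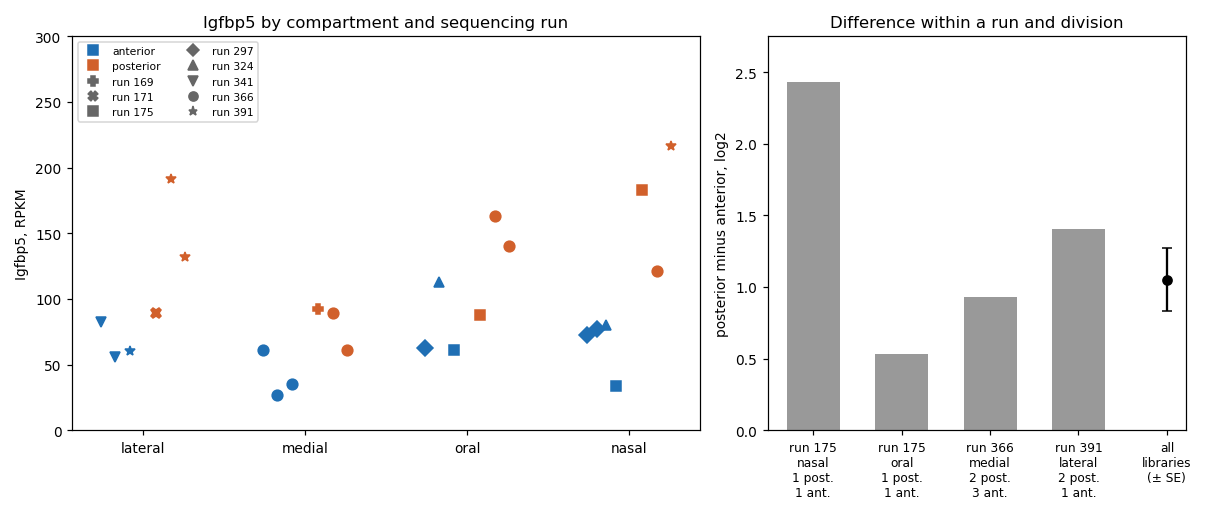
Left, Igfbp5 in RPKM in each library, by division of the shelf, with blue for anterior and orange for posterior libraries and 1 marker shape per sequencing run. Right, posterior minus anterior difference in mean log2(RPKM + 0.1) within the same run and division (bars; library numbers under each) and over all 25 libraries (point ± SE); the 4 bars lie between 0.53 and 2.43 and the fit over all libraries at 1.05.

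Sequencing runs were unevenly spread over the compartments, and 3 of the 8 runs held both anterior and posterior libraries. Within these runs the posterior minus anterior difference of Igfbp5 was 1.48, 1.49 and 1.55 on the log2 scale, but 2 of them set unlike compartments against each other. In 1 run the anterior side was anterior medial tissue alone, the compartment lowest in Igfbp5, and in another it was 1 anterior lateral library. Within the same run and the same division the difference was 2.43 for nasal and 0.53 for oral tissue (1 library against 1 each), 0.93 for medial tissue (2 posterior against 3 anterior libraries, which overlapped) and 1.404 for lateral tissue (2 against 1). These 4 differences were all above 0 and were not tested. The nasal and oral ones rest wholly on libraries with Tgfbr2 in the alignment name. With the run as a term in the model the difference over all libraries was 1.32, with an adjusted p of 0.0268. Without the 6 libraries named for other lines it was 1.07, with an adjusted p of 0.0273. The call was lost, at a like difference, without the lateral libraries (1.06, adjusted p = 0.0559) and without the nasal libraries (0.93, adjusted p = 0.0853). Osteoblast markers were highest as a sum where Igfbp5 was highest. The summed level of the 6 markers was 378 to 547 RPKM in posterior nasal libraries and at most 185 RPKM in any other library. Spp1 and Bglap had no part in this, at no more than 1.72 and 0.823 RPKM in posterior nasal libraries. The 6 pericyte and smooth muscle markers summed to 84.7 to 196 RPKM in anterior and 61.1 to 134 RPKM in posterior libraries. The osteoblast sums did not follow Igfbp5 in every division. Among medial libraries they overlapped and reached higher anteriorly, at 72.8 to 110 RPKM anterior and 67.9 to 74.3 RPKM posterior. Among oral libraries every posterior sum, from 83.5 RPKM upward, lay above every anterior sum. Among lateral libraries the osteoblast sums overlapped, at 58.6 to 185 RPKM anterior and 49.6 to 155 RPKM posterior. The osteoblast transcription factor genes Runx2 and Sp7 were higher in posterior lateral replicates 2 and 3 (Runx2 69.2 and 52.6 RPKM, Sp7 25.7 and 29.3 RPKM), which had the higher Igfbp5 levels. Posterior lateral replicate 1, with the lowest Igfbp5 level of the 3, had 13.1 RPKM of Runx2 and 2.08 RPKM of Sp7, within the anterior lateral ranges of 11.6 to 18.1 and 1.58 to 4.25 RPKM. Alpl was also lowest in that library (26.1 RPKM). Ibsp, Spp1 and Bglap did not follow Igfbp5 in lateral tissue. Ibsp was 6.55 RPKM in posterior lateral replicate 1 and 3.65 RPKM in replicate 2. All of Ibsp, Spp1 and Bglap peaked in anterior lateral replicate 3 (93.9, 24.2 and 5.60 RPKM), where Igfbp5 was 60.0 RPKM. The part of these markers in the Igfbp5 difference was not tested.

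No other member passed between posterior and anterior palate. Igf1 had means of 92.6 RPKM posterior and 69.5 RPKM anterior, a difference of 0.56 ± 0.31 (SE; limma adjusted p = 0.397). In lateral tissue its means were 119 RPKM posterior and 26.7 RPKM anterior, without overlap. In oral tissue they were 109 and 61.1 RPKM, in medial tissue 78.9 and 106 RPKM, and in nasal tissue 63.4 and 80.3 RPKM, each with overlap. Igf1r had 28.5 RPKM ± 4.50 (SD, n = 13) in anterior and 22.2 RPKM ± 4.83 (SD, n = 12) in posterior libraries, a difference of -0.38 ± 0.12 (SE) on the log2 scale with an adjusted p of 0.104. After each library was centred on its median the Igf1r difference was -0.43 and passed, with an adjusted p of 0.0419. Igfbp7, which binds IGFs only weakly and is best known from vessels, had medians of 28.4 RPKM anterior and 12.3 RPKM posterior with overlapping ranges, and a difference of -0.79 ± 0.31 (SE; adjusted p = 0.207). It passed when posterior lateral replicate 1, at 62.4 RPKM the highest posterior value, was left out (-0.97, adjusted p = 0.0445), and without the 6 libraries named for other lines (-1.22, adjusted p = 0.0165). Igf2 had means of 358 RPKM ± 97.8 (SD, n = 13) anterior and 345 RPKM ± 78.0 (SD, n = 12) posterior. The median log2 difference was 0.04 over the 9 members and 0.03 over all genes tested.

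In the anterior palate Igf1 (gene ID 16000, chr10:87321801-87399792 in mm9) and Igfbp2 (gene ID 16008, chr1:72871077-72899045 in mm9) differed between the lateral and medial compartments in opposite directions. Igf1 had 38.1, 20.6 and 21.4 RPKM in the anterior lateral libraries and 125, 116 and 77.8 RPKM in the anterior medial libraries. Every lateral value was below every medial value. The log2 difference, lateral minus medial, was -2.02 ± 0.28 (SE; limma adjusted p = 0.0132). Igfbp2, which encodes a binding protein with an integrin recognition motif, had 48.0, 73.0 and 88.2 RPKM in lateral and 26.0, 20.8 and 24.8 RPKM in medial libraries. Here every lateral value was above every medial value, and the log2 difference was 1.504 ± 0.23 (SE; limma adjusted p = 0.0178). These 2 of the 9 members tested passed, where 2.51% of 10427 genes passed, 1.43% with a higher lateral and 1.08% with a lower lateral level.

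**Figure D3:**
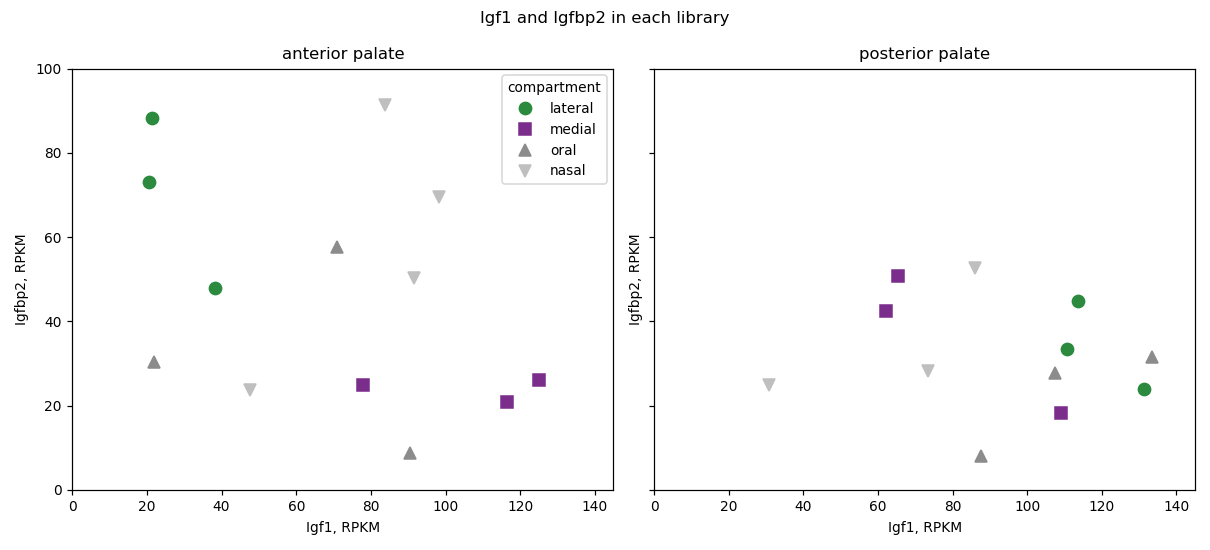
Igf1 (horizontal) against Igfbp2 (vertical), both in RPKM on linear axes, with 1 point per library and a marker for each compartment, in the anterior (left) and posterior (right) palate. Anterior lateral libraries lie at low Igf1 and higher Igfbp2 (20.6 to 38.1 and 48.0 to 88.2 RPKM), anterior medial libraries at high Igf1 and low Igfbp2 (77.8 to 125 and 20.8 to 26.0 RPKM), and the posterior libraries show no such separation for Igfbp2.

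A further 3 members did not overlap between anterior lateral and medial libraries but did not pass the test. Igfbp3, the main carrier of IGFs in serum, had 67.8 to 97.3 RPKM in lateral and 123 to 155 RPKM in medial libraries, with a difference of -0.75 ± 0.16 (SE; adjusted p = 0.0683). Igfbp4, an inhibitor of IGF action that PAPPA cleaves, had 140 to 155 RPKM in lateral and 102 to 109 RPKM in medial libraries (0.48 ± 0.11 SE, adjusted p = 0.0718). Igf1r had 28.9 to 34.4 RPKM in lateral and 24.05 to 26.6 RPKM in medial libraries (0.31 ± 0.12 SE, adjusted p = 0.261). Of all genes tested, 21.3% had groups without overlap in this comparison. Igf2 had means of 309 RPKM ± 37.5 (SD, n = 3) and 308 RPKM ± 38.2 (SD, n = 3), so the ratio of Igf2 to Igf1 was 7.10 to 16.8 in lateral and 2.58 to 3.52 in medial libraries.

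The calls in this comparison depended on the libraries and the model. Leaving out 1 library at a time, Igf1 passed in 3 of 6 fits and Igfbp2 in 2 of 6. The Igf1 call was lost without anterior lateral replicate 2 (adjusted p = 0.0591) or 3 (0.0689) or anterior medial replicate 2 (0.0584). The Igfbp2 call was lost without anterior lateral replicate 2 (adjusted p = 0.0844) or 3 (0.0687) or anterior medial replicate 2 (0.0703) or 3 (0.0505). Both kept their direction in these fits. In a fit of all 25 libraries, which shares the spread of every compartment, the adjusted p was 0.0674 for Igf1 and 1.00 for Igfbp2. The anterior lateral and anterior medial libraries shared no sequencing run, so a difference between runs and a difference between compartments cannot be told apart there. Several marker lists moved with the compartment as well. The 5 cartilage markers summed to 20.7 to 21.6 RPKM in lateral and 67.6 to 109 RPKM in medial libraries. The 5 nerve and Schwann cell markers summed to 17.7 to 21.3 and 38.0 to 61.4 RPKM. In that list Prph and Tubb3 were higher in medial libraries, whereas Sox10 was lower there (6.10 to 7.62 RPKM lateral, 0.791 to 1.68 RPKM medial). Endothelial markers were higher as a sum in lateral libraries, at 153 to 173 against 112 to 133 RPKM. So were pericyte and smooth muscle markers, at 166 to 173 against 98.9 to 152 RPKM. In that list Rgs5, Pdgfrb, Myh11 and Cspg4 were higher in every lateral library. Tagln in anterior medial replicates 1 and 2 (27.8 and 26.3 RPKM) was above every lateral value. Acta2 in anterior medial replicate 1 (52.9 RPKM) lay within the lateral range of 52.2 to 53.6 RPKM. The part of these lists in the Igf1 and Igfbp2 differences was not tested.

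In the posterior palate Igf1 lay the other way round. The posterior lateral libraries had 111, 131 and 114 RPKM and the posterior medial libraries 62.2, 109 and 65.5 RPKM. The values did not overlap, as for 6.62% of all genes tested, but the difference of 0.63 ± 0.32 (SE) had an adjusted p of 0.957. No gene of the 10324 tested passed here (0.0%) by limma, and 159 (1.54%) had an unadjusted p under 0.05, none of them a member. The change in the lateral minus medial difference of Igf1 from anterior to posterior was 2.65 ± 0.44 (SE), with an unadjusted p of 1.23e-04 and an adjusted p of 0.168. This contrast called 0.00902% of 11089 genes. For Igfbp2 the same contrast was -1.55 ± 0.56 (SE; adjusted p = 0.964). Posterior lateral and medial libraries had 23.8 to 44.8 and 18.3 to 50.9 RPKM of Igfbp2, with overlap. They shared no sequencing run either.

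**Figure D4:**
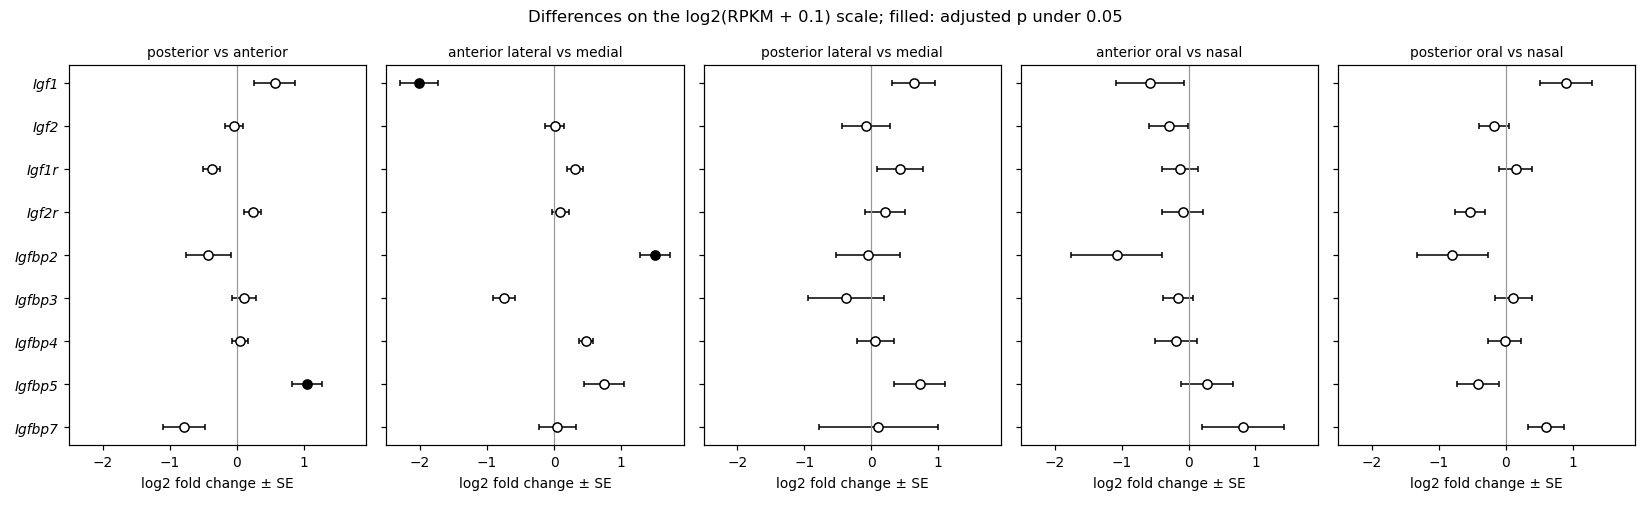
Log2 fold changes (horizontal, ± SE, on the log2(RPKM + 0.1) scale) of the 9 tested members in the 5 comparisons, each given as the named side minus the other; filled points have an adjusted p under 0.05. Filled points are Igfbp5 for posterior against anterior (1.05) and Igf1 (-2.02) and Igfbp2 (1.504) for anterior lateral against medial.

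Between oral and nasal tissue no member passed in the anterior or the posterior palate. Anteriorly 0.0% of 10684 genes passed by limma and 318 (2.98%) had an unadjusted p under 0.05, none of them a member. With the replicate number as a block 0 genes passed as well, and 391 had an unadjusted p under 0.05. With this block the log2 difference, oral minus nasal, went from -0.57 to -0.81 for Igf1. It went from -1.07 to -1.45 for Igfbp2 and from 0.27 to -0.02 for Igfbp5. The ranges of each of the 9 members overlapped there, whereas 3.67% of all genes had groups without overlap. Posteriorly 1.25% of 10586 genes passed. Igf1 had 87.6, 107 and 134 RPKM in posterior oral and 30.8, 86.0 and 73.5 RPKM in posterior nasal libraries. These values did not overlap, and the difference of 0.89 ± 0.39 (SE) had an adjusted p of 0.621. In the run that holds 1 library of each the Igf1 difference was 1.503, and in the run with 2 oral and 1 nasal libraries it was 0.48. Igf2r had 42.2, 43.4 and 38.7 RPKM in oral and 76.0, 53.0 and 54.1 RPKM in nasal libraries, also without overlap (-0.54 ± 0.22 SE, adjusted p = 0.566). Groups did not overlap for 11.8% of all genes in this comparison. The contrast of the oral minus nasal difference between posterior and anterior palate called 0.035% of 11442 genes and no member.

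Considered together, the 6 binding protein genes summed to 400 RPKM ± 73.2 (SD, n = 25), between 250 and 535 RPKM, and the ligands to 433 RPKM ± 99.2 (SD, n = 25). Igf2 made up 68.8% to 94.4% of the ligand sum. Igfbp4 was the most abundant binding protein gene in 15 libraries, Igfbp3 in 6 and Igfbp5 in 4. The posterior binding protein sum was 428 RPKM ± 63.8 (SD, n = 12) and the anterior sum 373 RPKM ± 73.4 (SD, n = 13), with overlapping ranges.

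**Figure D5:**
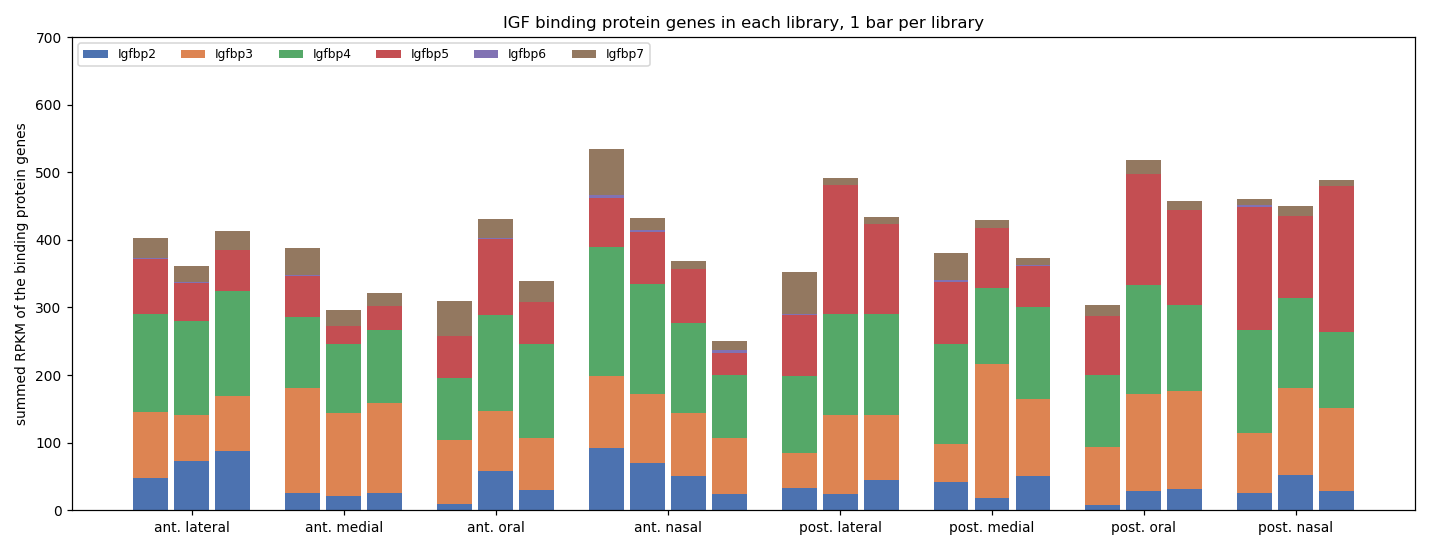
Summed RPKM of the 6 binding protein genes (linear axis from 0), 1 bar per library, grouped by compartment and divided by gene. Sums lie between 250 and 535 RPKM, and the Igfbp5 section is larger in posterior libraries (mean 131 against 63.1 RPKM).

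Of 43 other genes of the IGF pathway, 30 were tested between posterior and anterior palate, and 1 passed, a share like the 3.32% of all genes. This was Htra1, a secreted serine protease that cuts IGF binding proteins, with 11.4 RPKM ± 5.07 (SD, n = 12) in posterior and 6.41 RPKM ± 1.77 (SD, n = 13) in anterior libraries (0.74 ± 0.20 SE, adjusted p = 0.0350). The 22 tested genes of receptor signalling had none that passed. In the F test over compartments 4 of 33 tested pathway genes passed, against 4.42% of all genes. Pappa, the protease of IGFBP4, had compartment means from 0.736 RPKM in anterior oral to 7.75 RPKM in posterior lateral tissue (adjusted p = 0.00298). Its relative Pappa2 had 1.01 RPKM in anterior medial and 13.6 RPKM in posterior lateral tissue (adjusted p = 0.0342). The posterior lateral mean of Pappa2 stood on values of 19.5, 3.31 and 17.9 RPKM. Adam12, a metalloprotease that cuts IGFBP3 and IGFBP5, had compartment means from 9.68 RPKM in posterior oral to 22.1 RPKM in anterior medial tissue (F test adjusted p = 0.0329). Between anterior lateral (13.8 RPKM) and anterior medial tissue it did not pass (limma adjusted p = 0.117). Pik3cb, a catalytic subunit of PI3 kinase, had compartment means from 2.06 RPKM in posterior nasal to 4.72 RPKM in anterior lateral tissue (F test adjusted p = 0.0138). No pathway gene passed in the comparisons of lateral with medial or of oral with nasal tissue. H19, the imprinted neighbour of Igf2, averaged 365.8 RPKM, Grb10, an imprinted adaptor that dampens receptor signalling, 153 RPKM, and Ghr, the growth hormone receptor, 50.1 RPKM, whereas Ins1, Ins2, Igfbp1 and Igfals had means under those of Igfbp6.

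Across the 25 libraries Igfbp5 was most like Maf (Pearson r = 0.820) and Ets2 (r = 0.815) among 8608 genes. The genes most like Igf1 were Corin (r = 0.765) and Sertad4 (r = 0.757). Igf1r was most like Pdgfrb (r = 0.893), a receptor gene of pericytes and mesenchyme that is also in the pericyte list, and Igf2r most like Serpinh1 (r = 0.897), a collagen chaperone. Igfbp2 and Igfbp4 had the highest correlation among members (r = 0.727), and Igfbp2 and Igfbp5, whose genes lie side by side on chromosome 1, had r = 0.018. For the other members the nearest genes were Ywhae (r = 0.788) and Bgn for Igf2, Actb (r = 0.679) and Ifi30 for Igfbp2, Gtpbp3 (r = 0.876) and Bckdhb for Igfbp3, Pfn1 (r = 0.741) and Tapbp for Igfbp4, Flot1 (r = 0.738) and Gm2a for Igfbp6, and Ank2 (r = 0.846) and Podn for Igfbp7. Frmd4a was also near Igf1r and Tmem119 near Igf2r. These correlations describe libraries that share compartments, runs and depth.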

How the data were processed

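RNA was extracted with Qiagen RNeasy kits from laser captured tissue, amplified (NuGEN Ovation RNA-Seq V2), tagmented (Nextera) and sequenced on an Illumina HiSeq as single-end reads of 50 bases. Per the labels, TopHat and mm9 were named in the submitters' processing notes. The authors removed duplicate reads and reads with more than 1 alignment, computed RPKM in GeneSpring 12.6.1, and deposited RPKM values for 37406 genes, of which 15007 are at 0 in every library. Reads without molecular identifiers are not independent molecules, and removal of duplicates may lower abundant genes such as Igf2. Strand was not stated to be used, so reads of Igf2 and Igf2r cannot be told apart from those of antisense transcripts at these loci. The 1 column named without the word RPKM was read as RPKM. No column was left unmapped (0).

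The groups and replicate numbers were taken from the labels. The sequencing run (8 runs) was read from alignment names in the header of the study's supplementary table. Nothing in the labels states that replicates came from separate litters, and p-values measure the spread between these libraries. Comparisons used limma 3.58.1 (lmFit, eBayes) in R 4.3.3 on log2(RPKM + 0.1), with Benjamini-Hochberg adjustment over all genes tested at a threshold of 0.05. Genes needed 10 RPKM in 6 libraries for posterior against anterior and 5 RPKM in 3 libraries otherwise. The count-based test of the study for posterior against anterior needs read counts, so limma was used throughout. With 3 libraries against 3, an exact permutation test cannot go below 0.1, so none was used. All 10 members were named in every comparison, other pathway genes where they passed, and for each member the 2 genes with the highest correlation. The members, gene lists and alternatives were chosen with earlier results of these data known. Same-numbered libraries deviated together in anterior oral and nasal tissue (correlations 0.242, 0.218 and 0.116), which meets the rule set for reading numbers as pairs. The fit reported has no block, and gene counts and the differences of Igf1, Igfbp2 and Igfbp5 with the block stand beside it. By run and alignment name, anterior oral replicates 2 and 3 go with anterior nasal replicates 3 and 4 instead, so the pairing is uncertain.

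Depth was worked out from the RPKM steps: 69.2% of 500 genes tried gave whole numbers of aligned bases in every library within 0.1 bases, and 15 transcript lengths matched at the total chosen against 2 at the next best. Tables and figures used Python 3.11.15, pandas 2.3.3, numpy 2.4.6 and matplotlib 3.10.9.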

Additional observations from a re-analysis of the deposited data

Results flagged for a closer look

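Igf2 in anterior nasal replicate 1 was 643 RPKM, where the other 3 libraries of that compartment had 362 to 377 RPKM, a gap over Dixon's limit for 4 values. Igfbp7 in the same library was 68.9 RPKM against 10.7 to 18.3 RPKM in the other 3. Chance gives such a gap in about 1 in 20 groups. The library also had the most genes above 0 of any, 20605. The lateral minus medial difference of Igf1 was 2.65 higher on the log2 scale in the posterior than in the anterior palate. All 3 anterior lateral libraries were below the anterior medial ones and all 3 posterior lateral libraries above the posterior medial ones. The test of that change (limma) had an unadjusted p of 1.23e-04 and an adjusted p of 0.168.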

How the results depend on the processing

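Of the members' own results with an unadjusted p under 0.1, 170 values under the alternatives kept their direction and side of the threshold, 17 lost the call and 3 gained it, and none turned direction, where fits with 1 library left out enter only by their lowest and highest value. Counted singly, 31 of 87 such fits of the called members lost the call, 20 of them for Igf1 in the F test. Members with an adjusted p under 0.05 between posterior and anterior palate numbered 1, 2 after centring, 0 without the lateral or the nasal libraries, 2 without the 6 libraries named for other lines, and 1 to 2 with 1 library left out. Between anterior lateral and medial tissue they numbered 2, and 0 without a filter, in a fit of all 25 libraries or with the run as a term, and 0 to 2 with 1 library left out. In the F test they numbered 2, 1 after centring, 0 without a filter or with the run as a term, and 0 to 2 with 1 library left out.

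Over all genes, posterior against anterior called 286, and 143 with the run as a term, 119, 178 and 128 without the lateral, oral and nasal libraries, and 224 to 414 with libraries left out (most without posterior medial replicate 2). Anterior lateral against medial called 262, but 16 without a filter, 31 in the fit of all libraries, 0 with the run as a term, and 55 to 195 with 1 library left out (fewest without anterior lateral replicate 3). Posterior lateral against medial called 0, then 2, 25 and 1 under those settings, and 0 to 1 with 1 library left out. Anterior oral against nasal called 0, 6 in the fit of all libraries, 4 with the run as a term and 0 to 6 with 1 library left out. Posterior oral against nasal called 132, then 1 without a filter, 68 in the fit of all libraries, 15 with the run as a term, and 12 to 57 with 1 library left out. The F test called 526, 177 with the run as a term and 386 to 737 with 1 library left out. The lateral and medial contrast along the palate called 1, 6 with a pseudocount of 1, 3 without a filter, 10 in the fit of all libraries, 3 with the run as a term and 0 to 9 with 1 library left out. The oral and nasal contrast called 4, then 7, 2, 10 and 0 under the same settings, and 0 to 5 with 1 library left out.

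With the replicate number as a block, anterior lateral against medial called 157 genes, and the contrasts along the palate called 0 and 0. The number of members called did not change with the block in any comparison. The labels give the replicate numbers no meaning. Outside anterior oral and nasal tissue not every same-numbered pair deviated together, although posterior oral and nasal replicates 1 and 2 share a run, and posterior lateral and medial replicates 1 a line name. Fits without a filter tested 37406 genes, those with a run term had fewer degrees of freedom, and the cause of other shifts was not tested. Igfbp6, at a median of 3 reads, was too low for any comparison at this depth. The alternatives without the 6 libraries named for other lines, and without a whole division, and the differences within a run and division, were chosen after seeing the data.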
